A study of Mus musculus with 15 samples.

Results

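Strong PU.1 sites on in vitro chromatin that carried no PU.1 peak in macrophages are described here. They were chosen as peaks of the in vitro list with a score of at least 200 that shared no base pair with any peak of the 4 lists from cells. This left 8881 of the 13507 in vitro peaks of that score (65.8%), and of 57512 in vitro peaks in all. Over the whole in vitro list, without the score minimum, 79.3% of peaks had no in vivo peak. The score and the overlap with the 4 lists made the choice, so every value of the members that rests on them is a description without a test. The one test is on the share of all 13507 strong peaks, chosen by score alone, that each library met. The members are called unbound peaks, in the sense that no peak was called there, since the lists do not show reads below the callers' threshold.

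PU.1, encoded by Spi1, is an ETS-family transcription factor that recognises purine-rich DNA with a GGAA core and is needed for macrophage and B cell development. In cells many matches to its motif lie in DNA that is wrapped in nucleosomes or otherwise not occupied, and PU.1 often binds beside other factors of the cell type. Chromatin assembled in vitro from pure DNA and recombinant histones keeps the sequence preference of nucleosomes but has neither the history nor the modifications of cellular chromatin.

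All material came from C57BL/6 mice. Bone marrow-derived macrophages, primary cells grown from marrow for 7 days, were infected with a doxycycline-inducible retrovirus. It carried either a single hairpin against PU.1 (shPU.1, n = 2 libraries) or a hairpin against Renilla luciferase, the control that the titles call empty (n = 2 libraries). All 4 cultures received puromycin at 3 µg/ml from day 3 and doxycycline at 0.5 µg/ml for 48 hours from day 5, and were fixed in 1% formaldehyde before chromatin immunoprecipitation (ChIP). For the in vitro list, nucleosomes were assembled with recombinant histones on sonicated DNA of untreated macrophages, cut to short arrays with micrococcal nuclease and mixed for 2 hours with macrophage nuclear extract. The extract had been depleted with normal rabbit IgG (1 library), which leaves PU.1 in it, or with the PU.1 antibody (1 library), and PU.1 was then precipitated from both. The same in-house rabbit antibody against the PU.1 N terminus served in every ChIP. The in vitro list has no replicate. Each group of cells has 2 libraries, and the labels do not say whether these came from separate mice or cultures, so p-values measure only the spread between these libraries, which may be technical.

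The lists of cells differed in length and in peak width. There were 15122 and 27733 peaks in the shPU.1 lists, against 30026 and 36759 in the control lists. Median widths were 448 and 1076 bp in shPU.1 replicates 1 and 2, against 435 and 892 bp in control replicates 1 and 2, so width went with the replicate number more than with the group. Sequencing depth is unknown for every list. A long list, or one with wide peaks, meets more of the in vitro peaks by its length and width alone.

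Among the 13507 strong in vitro peaks, the 8881 unbound ones were the most frequent class. Another 2320 (17.2%, exact Clopper-Pearson 95% interval 16.5 to 17.8) met a peak in both control lists and are called shared peaks. A further 1915 (14.2%, 13.6 to 14.8) met a peak in 1 control list, and 391 (2.89%, 2.62 to 3.19) met peaks of shPU.1 lists only. These intervals cover counting of peaks within these lists, not differences between cultures.

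The share without an in vivo peak was lower at higher in vitro scores and did not come near 0. It was 86.8% of peaks scoring 50 to 75 (95% interval 86.3 to 87.3) and 77.0% of those scoring 150 to 200 (75.9 to 78.1). Above the minimum it was 72.8% at 200 to 300, 66.8% at 300 to 500, 55.3% at 500 to 1000 (53.3 to 57.2) and 42.4% at 1000 or more (38.9 to 46.0). At 1000 or more, 331 of 780 peaks were unbound and 235 were shared. The share of shared peaks was 6.08% in the lowest of these bins and 30.1% in the highest. Peaks met by shPU.1 lists only stayed between 1.78% and 3.23% of every bin.

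**Figure D1:**
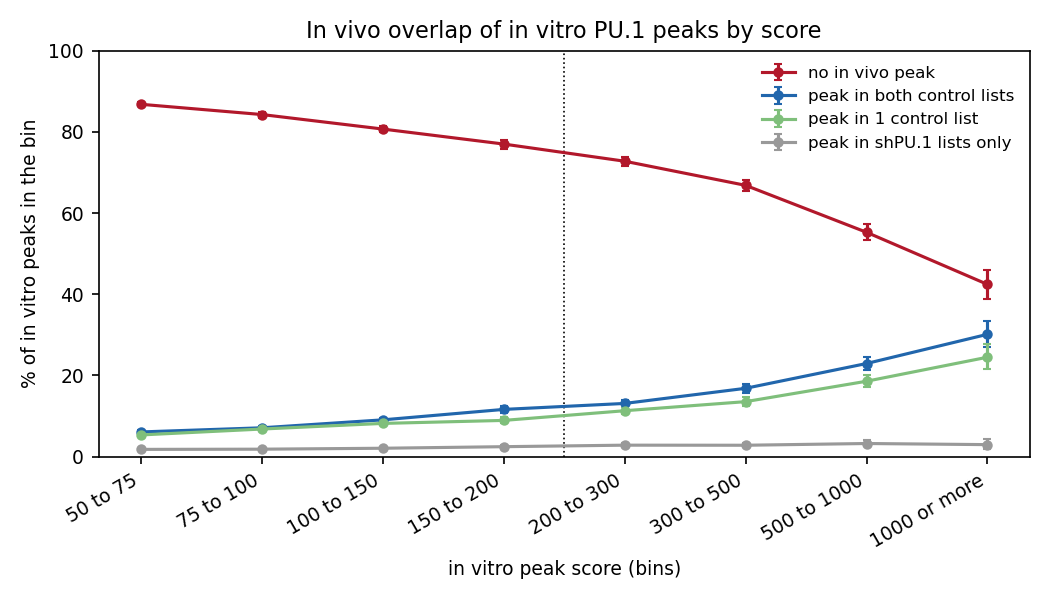
Share of in vitro PU.1 peaks (vertical axis, %) in each of 4 classes by in vitro peak score (horizontal axis, bins), with exact 95% intervals; the dotted line marks the score minimum of 200. The share with no in vivo peak was 86.8% in the lowest bin and 42.4% in the highest, while the share with a peak in both control lists was 6.08% and 30.1%.

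The unbound peaks scored lower than the shared ones, with wide overlap. Their median score was 312 (quartiles 243 and 446), against 394 (274 and 626) in shared peaks, a log2 ratio of -0.34. An unbound peak outscored a shared one with a probability of 0.387. On all 19 autosomes the median of the unbound peaks was the lower one. At the edge of the choice, the 3 lowest unbound peaks scored 200.01, 200.01 and 200.02, and the 3 highest peaks left out for their score, also without an in vivo peak, scored 199.99, 199.95 and 199.95. At the other edge, the smallest overlap that kept a strong peak out was 8 bp, and 19 of the 4626 strong peaks with an in vivo peak (0.411%) shared less than 100 bp with it. The median overlap of those 4626 was 909 bp.

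The highest unbound peaks lay on several chromosomes (build mm9, positions counted from 1). The upper end of the score scale is tied at 3100, and 8 of the 57 in vitro peaks at or above it were unbound, against 35 shared ones. Of these 8, 4 lay on chromosome 2. They were at 76684159 to 76685600 (1442 bp), 89224801 to 89230929 (6129 bp), 169333044 to 169334518 (1475 bp) and 169470007 to 169471648 (1642 bp). Their nearest peaks of any in vivo list were 19.3, 132, 349 and 225 kb away in that order. Each of those neighbours came from a shPU.1 list, with a score between 52.6 and 71.6. They stood at the percentiles 6.68, 43.4, 15.9 and 23.9 of their own lists, so each ranked in the lower part of its list.

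Another 3 lay on chromosome 3 at 152345129 to 152347661, on chromosome 8 at 39139653 to 39141586 and on chromosome 9 at 74500359 to 74501713. Their nearest in vivo peaks were 28.9, 860 and 86.6 kb away. The neighbour of the chromosome 3 peak was a control replicate 2 peak with a score of 350, at the percentile 84.1 of its list. That was the highest percentile among the neighbours of these 7. The eighth covered the start of the mitochondrial chromosome up to position 5579, and none of the 4 in vivo lists had a peak on that chromosome. The 9th and 10th highest scored 2882 (chromosome 8, 44784061 to 44785309) and 2873 (chromosome 10, 8173349 to 8175145), with in vivo neighbours 27.3 and 36.1 kb away.

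Of the shared peaks, 35 were tied at the top score of 3100, and the first 5 by chromosome and start are named. These 5 do not stand for the 35. Among the 5, 2 on chromosome 1, at 90121879 to 90129069 and 90148615 to 90166923, were 7191 and 18309 bp wide. The other 3 lay within a few kb of each other on chromosome 2, between 98501947 and 98507801. Each of the 5 had another in vitro peak within 1 kb. Among the 8 unbound peaks at 3100, the first chromosome 2 peak (0.664 kb) and the mitochondrial one (0.049 kb) had an in vitro neighbour that near. The 8 are all unbound peaks of that score, while the 5 are only some of the shared ones, so these counts are not on equal terms. No list of regions prone to false signal was used, and the part of such regions in either class was not tested.

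Width differed little once the score was taken into account. Unbound peaks had a median width of 1084 bp (quartiles 960 and 1213 bp), against 1158.5 bp (1030 and 1305 bp) in shared peaks, a log2 ratio of -0.096. Width grows with score in the in vitro list, from a median of 662 bp in unbound peaks scoring 50 to 75 up to 1358 bp in those scoring 1000 or more. Within bins of score the medians were 1019 bp in unbound and 1052.5 bp in shared peaks at 200 to 300, 1109 and 1142.5 bp at 300 to 500, 1207 and 1249 bp at 500 to 1000, and 1358 and 1429 bp at 1000 or more. The log2 ratio within bins was -0.047, against the pooled -0.096. A wide peak meets other peaks more easily, so width is not independent of the choice of members. Peaks over 2000 bp wide made up 0.766% of the unbound (68 peaks) and 2.46% of the shared ones (57 peaks).

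**Figure D2:**
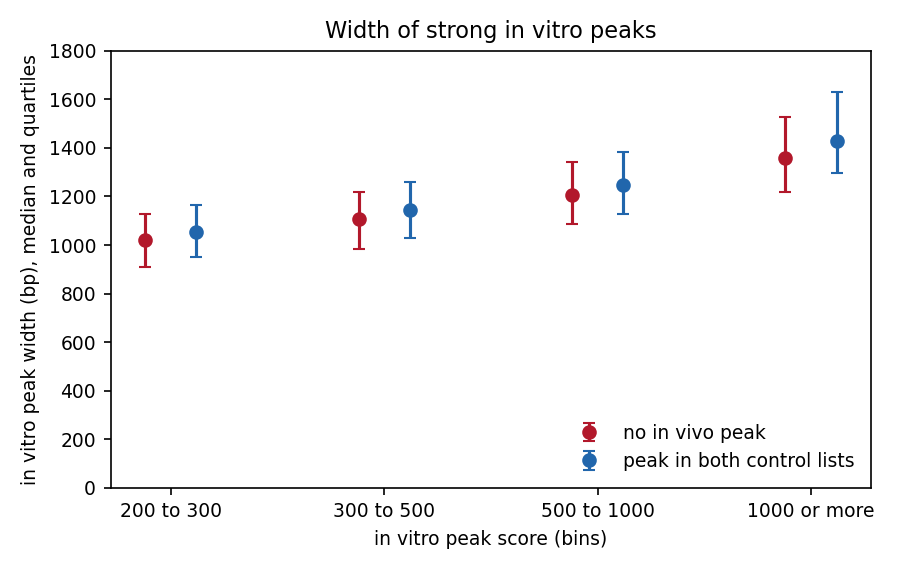
Width of strong in vitro peaks (vertical axis, bp; points are medians, bars the quartiles) by score bin (horizontal axis), for peaks with no in vivo peak and peaks met by both control lists. In each of the 4 bins the first class has the lower median, for example 1019 against 1052.5 bp at scores of 200 to 300, and the quartile ranges overlap.

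The 5 widest unbound peaks were the chromosome 2 peak of 6129 bp and the mitochondrial peak of 5728 bp named above, a 4758 bp peak on chromosome X at 166429705 to 166434462, a 3433 bp peak on chromosome 13 at 120280498 to 120283930 and a 2662 bp peak on chromosome 19 at 61339487 to 61342148. The X peak was 113 bp from a peak of control replicate 2, and the chromosome 13 peak 36 bp from another in vitro peak. The peaks on chromosomes 13 and 19 were the last of any list on their chromosome. Scores of these 5 ran from 310 to 3100. The listed start of the mitochondrial peak lies before the start of the chromosome, so its width is larger than its end position.

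The classes differed more in the surrounding DNA. Distance was measured from each in vitro peak to the nearest in vivo peak that shared no base with it. This rule was the same for both classes, but the classes themselves were chosen by the same in vivo lists. For unbound peaks the median gap was 36.8 kb (quartiles 10.6 and 123 kb, n = 8880, leaving out the mitochondrial peak, which had none). For shared peaks it was 5.44 kb (1.86 and 14.9 kb, n = 2320). The log2 ratio of the medians was 2.76, a 6.76-fold longer gap, and an unbound peak had the longer gap with a probability of 0.793. Every one of the 19 autosomes had the longer median gap in unbound peaks, with a range over autosomes of 19.2 to 53.6 kb in unbound and 3.98 to 7.69 kb in shared peaks. Peaks met by 1 control list (9.10 kb) and by shPU.1 lists only (10.2 kb) lay between. Shared peaks lie on peaks of both control lists by definition, and unbound peaks on none. Peaks of control replicates 1 and 2 were themselves a median of 7.69 and 7.38 kb from the nearest other peak of their list. To those lists, shared peaks had median gaps of 10.8 and 7.98 kb, and unbound peaks 113 and 85.5 kb. The part of the choice of classes in the contrast of gaps was not tested.

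The gap hardly followed the in vitro score. Unbound peaks below the minimum of 200 had a median gap of 35.0 kb (n = 36740), close to the 36.8 kb of the strong ones. Over bins of score the medians of unbound peaks were 34.0 kb at 50 to 75, 36.1 kb at 200 to 300, 36.4 kb at 300 to 500 and 37.2 kb at 500 to 1000. Only the 331 highest, with scores of 1000 or more, stood somewhat apart at 47.0 kb. Shared peaks of the same score bins had gaps of 5.24 to 5.88 kb.

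**Figure D3:**
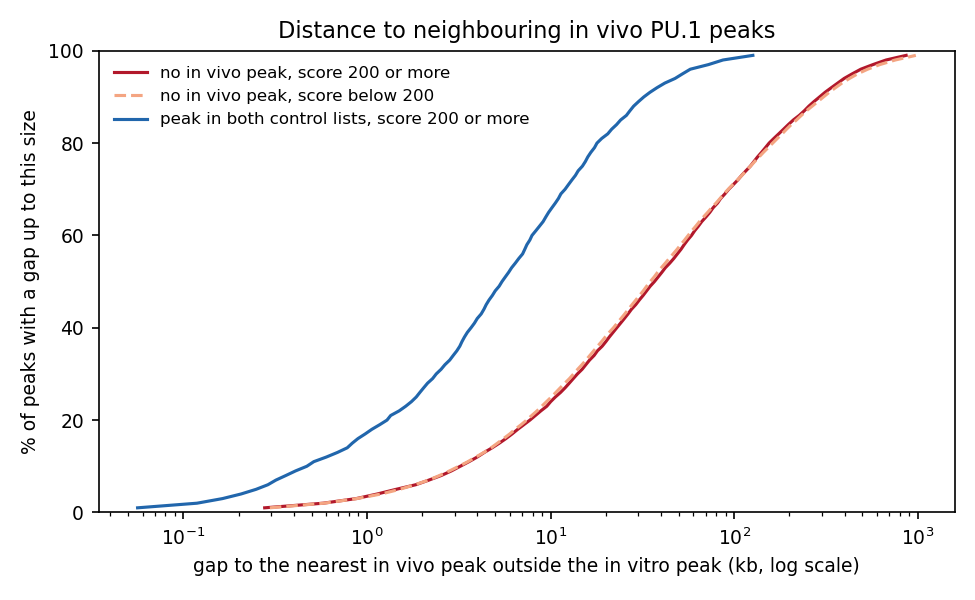
Cumulative share of in vitro peaks (vertical axis, %) by the gap to the nearest in vivo peak outside the in vitro peak (horizontal axis, kb, log scale). Strong and weaker peaks with no in vivo peak run together, with medians of 36.8 and 35.0 kb, and peaks met by both control lists lie to the left at 5.44 kb.

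In numbers of neighbours, 24.0% of the unbound peaks (95% interval 23.1 to 24.9) had an in vivo peak within 10 kb, against 65.5% of the shared ones (63.5 to 67.4). Within 100 kb the shares were 71.2% (70.2 to 72.1) and 98.3% (97.7 to 98.8). Most unbound peaks were therefore within 100 kb of a PU.1 peak of at least 1 library. Only 346 of them (3.90%) lay in 1 Mb windows without any in vivo peak, and there were 107 such windows among the 2370 that held an unbound peak. The fixed 1 Mb window in which an unbound peak fell held a median of 29 in vivo peaks summed over the 4 lists, against 77 for a shared peak. These window counts include in vivo peaks that overlap the in vitro peak. Shared peaks have such peaks by definition and unbound peaks have none, so here the classes were not measured alike.

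Both score and surroundings went with the share of unbound peaks. With an in vivo peak less than 10 kb away (but outside the in vitro peak), 51.3% of in vitro peaks scoring 200 to 300 were unbound (49.0 to 53.6), and 17.9% of those scoring 1000 or more (13.9 to 22.5). At 10 to 100 kb these shares were 77.3% and 52.7%. At 100 kb or more they were 95.99% (94.7 to 97.0) and 78.6% (70.6 to 85.3). In DNA that far from other in vivo peaks, 103 of 131 in vitro peaks with a score of 1000 or more thus had no in vivo peak. Of the 331 unbound peaks of that score, 31.1% had a gap of 100 kb or more and 17.8% a gap below 10 kb. In finer steps of the gap, the unbound share of all strong peaks was 30.0% below 1 kb, 43.8% at 1 to 3 kb, 49.5% at 3 to 10 kb, 61.9% at 10 to 30 kb, 79.8% at 30 to 100 kb, 93.3% at 100 to 300 kb, 96.5% at 300 to 1000 kb and 95.2% at 1000 kb or more (60 of 63 peaks, 86.7 to 99.0). The choice of members and the gap both use the in vivo lists, so these shares are descriptions.

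**Figure D4:**
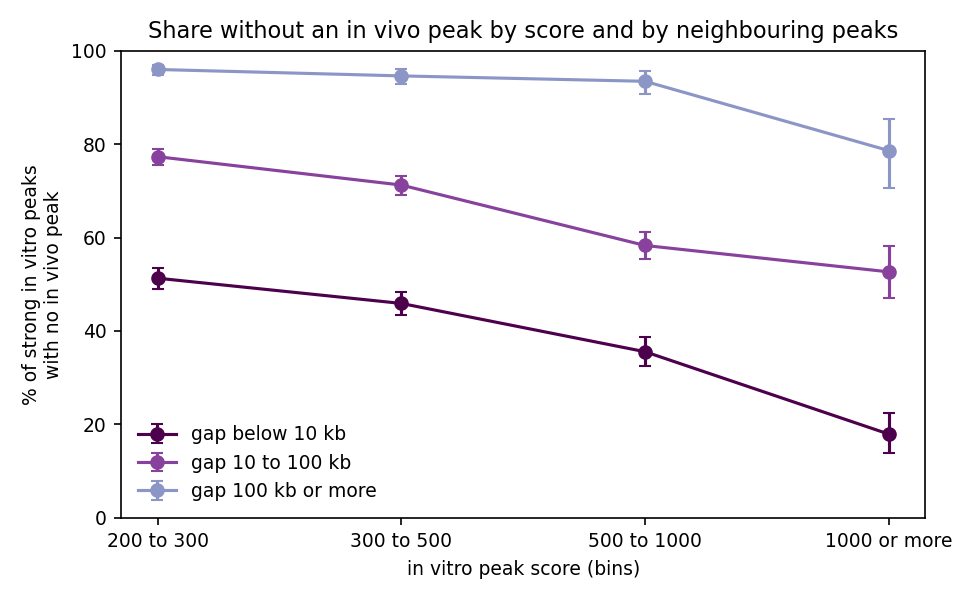
Share of strong in vitro peaks with no in vivo peak (vertical axis, %, with exact 95% intervals) by in vitro score (horizontal axis, bins), drawn separately for 3 ranges of the gap to the nearest in vivo peak outside the in vitro peak. At scores of 1000 or more the share was 17.9% with a gap below 10 kb, 52.7% at 10 to 100 kb and 78.6% at 100 kb or more.

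A small group of unbound peaks lay beside an in vivo peak without touching it. There were 309 (3.48%, 95% interval 3.11 to 3.88) within 1 kb of one, and 32 within 100 bp. For 189 of the 309 the neighbour came from 1 list only, and for 31 all 4 lists had a peak within 1 kb. The in vivo neighbours were of middling rank, at median percentiles of 49.4 and 45.8 in the shPU.1 lists and 46.6 and 48.8 in the control lists. The closest gaps were 1 bp, at chromosome 5, 121094250 to 121095133 (score 321), and at chromosome 15, 53036075 to 53036978 (score 388). Next came chromosome 19, 45633278 to 45634364 (3 bp), chromosome 6, 98979274 to 98980622 (5 bp), and chromosome 1, 157367232 to 157368258 (6 bp). Whether such pairs are a single site split by the edges of the calls was not tested. Shared peaks more often had such a close neighbour, with 17.4% within 1 kb (15.9 to 19.0).

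At the other extreme, 60 unbound peaks were 1 Mb or more from any in vivo peak. Of these, 12 lay on chromosome X, 10 on chromosome 1, 8 on chromosome 14 and 7 on chromosome 3. The farthest was on X at 115201560 to 115202542 (score 263), 3.57 Mb from the nearest in vivo peak. It was followed by X, 86968208 to 86969194 (2.48 Mb, score 244), X, 80002665 to 80003447 (2.47 Mb, score 274), and a pair on chromosome 14 at 108744739 to 108745710 (2.18 Mb, score 302) and 108720457 to 108721203 (2.16 Mb, score 214). None of these 5 was among the highest scores.

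Spacing within the in vitro list, which does not use the cells' lists, differed little. The nearest other in vitro peak of any score was a median of 13.8 kb from unbound peaks (quartiles 5.48 and 28.3 kb), against 11.4 kb (4.16 and 24.95 kb) for shared peaks, a log2 ratio of 0.27. The gap was the longer one in unbound peaks on 15 of the 19 autosomes and the shorter one on 4. Another in vitro peak lay within 10 kb for 40.0% of unbound peaks (39.0 to 41.0) and 45.7% of shared ones (43.7 to 47.8). With neighbouring unbound peaks less than 10 kb apart joined, 8161 (91.9%) stood alone, 666 were in pairs, 42 in runs of 3 and 12 in 3 runs of 4. Runs were not counted for the other classes. The share expected to stand alone at this density was not computed, so the 91.9% is not given as a trait of the unbound peaks.

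These 3 runs were on chromosome 4 at 3006594 to 3018708 and at 146790631 to 146806552, and on chromosome 9 at 3020277 to 3037812. The first began with the first in vitro peak listed on its chromosome, and its nearest in vivo peak was 137 kb away. The second held 1 peak of shPU.1 replicate 2 within its span. The third lay among in vivo peaks, with 6 and 1 of the shPU.1 lists and 9 and 4 of the control lists inside its span. It was part of the 1 Mb window with the most unbound peaks, chromosome 9 from 3000001 to 4000000. That window held 28 strong in vitro peaks, of which 13 were unbound (scores 223 to 1151), 9 shared and 6 met by 1 control list. The unbound share was thus lower there than the 65.8% over all strong peaks. The part of repeated DNA in these runs was not tested.

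Unbound peaks were spread over the autosomes more evenly than shared ones. Their density ran from 3.18 per Mb on chromosome 7 to 4.03 per Mb on chromosome 1, a ratio of 1.27. For shared peaks it ran from 0.664 per Mb on chromosome 3 to 1.30 per Mb on chromosome 19, a ratio of 1.96. An autosome held 67 (chromosome 18) to 204 (chromosome 2) shared peaks, against 214 (chromosome 19) to 795 (chromosome 1) unbound ones. Counting alone widens the ratio more in the smaller class, and its part was not tested. Lengths were taken up to the last peak of any list. The unbound share of strong in vitro peaks was lowest on chromosome 11 (58.7%, 95% interval 54.9 to 62.4) and highest on chromosome 8 (72.4%, 69.0 to 75.6).

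Chromosome X held few strong in vitro peaks of either class. There were 100 unbound peaks (0.601 per Mb, against 3.55 per Mb on autosomes) and 13 shared ones (0.0781 per Mb, against 0.932 per Mb on autosomes). The density on X was thus 0.169 times the autosomal one for unbound and 0.0838 times for shared peaks, a log2 ratio between the classes of 1.01. That contrast rests on few peaks: it was 0.079 at a score minimum of 500 (9 unbound and 4 shared peaks on X) and turned to -0.10 at 1000 (4 and 3 peaks). The unbound share was 66.2% on X (95% interval 58.1 to 73.7) and 65.8% on autosomes. Unbound peaks on X were farther from in vivo peaks, with a median gap of 141 kb, and farther from other in vitro peaks, at 43.6 kb. In vivo peaks were sparser there too, at 10.6 per Mb over the 4 lists, against 32.6 (chromosome 14) to 66.7 (chromosome 11) on autosomes. For the 13 shared peaks on X these gaps were 16.2 kb, above the 3.98 to 7.69 kb of autosomes, and 13.8 kb. The labels do not give the sex of the mice, and its part in the densities was not tested.

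**Figure D5:**
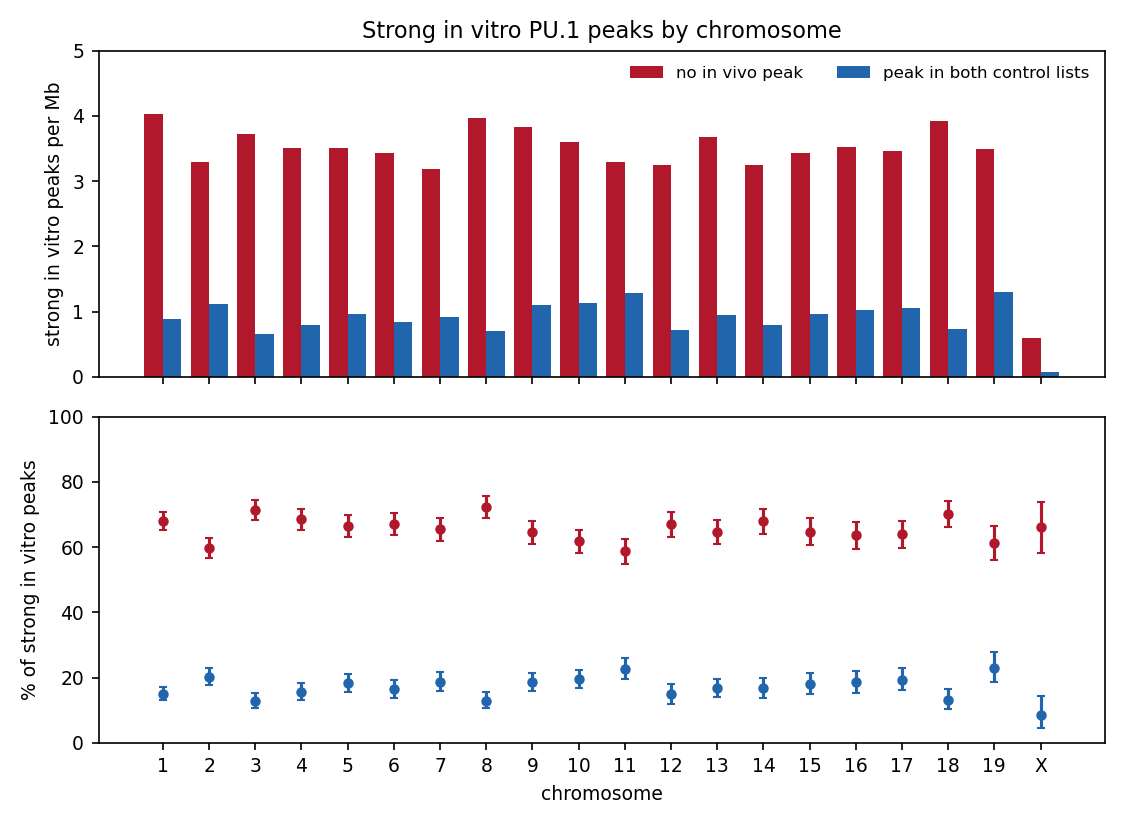
Strong in vitro peaks by chromosome (horizontal axis): peaks per Mb (upper panel) and share of all strong in vitro peaks with exact 95% intervals (lower panel, %), for peaks with no in vivo peak and peaks met by both control lists. Unbound density lay between 3.18 and 4.03 per Mb on the 19 autosomes and was 0.601 per Mb on X, while the unbound share on X (66.2%) was close to that on autosomes (65.8%).

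The remaining comparison asked whether strong in vitro sites were found less often in cells with the PU.1 hairpin. A peak lay on 13.3% and 22.0% of the 13507 strong in vitro peaks in the shPU.1 lists, against 18.4% and 30.1% in the control lists. The ranges of the groups overlap, and replicate 2 was higher than replicate 1 in each group. The mean was 17.6 ± 6.1 (SD, n = 2) in shPU.1 and 24.3 ± 8.3 (SD, n = 2) in control libraries, a difference of -6.64 percentage points (p = 0.67, two-sided exact permutation over libraries). The smallest p that 2 against 2 libraries allow is 0.33. Between libraries of the same number the difference was -5.13 points for replicate 1 and -8.16 points for replicate 2. The difference was 0.71 with all lists limited to the 15122 highest peaks, the length of the shortest. Leaving out shPU.1 replicate 1 gave -2.30 and leaving out shPU.1 replicate 2 gave -11.0. Leaving out a control library gave -12.5 for replicate 1 and -0.78 for replicate 2.

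Single lists decided how many peaks counted as unbound to unequal extents. Of the strong in vitro peaks, 53 were met only by shPU.1 replicate 1, 288 only by shPU.1 replicate 2, 115 only by control replicate 1 and 1082 only by control replicate 2. Without control replicate 2, the longest list, 9963 peaks (73.8%) would be unbound.

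The unbound peaks were not equally far from the 4 lists. These distances are given without a test, since having no peak in any of these lists chose the members, and each list removed a different number of peaks from them. Their median gap to the nearest peak was 123 and 61.8 kb in the shPU.1 lists, against 113 and 85.5 kb in the control lists. Thus shPU.1 replicate 1 came about as near to them as control replicate 1, though it holds 15122 peaks to the 30026 of that list, and shPU.1 replicate 2 came nearer than either control list. The difference of the means was -6.93 kb. It turned to 23.6 kb when shPU.1 replicate 2 was left out and to 6.85 kb when control replicate 1 was. Leaving out shPU.1 replicate 1 gave -37.4 kb, and leaving out control replicate 2 gave -20.7 kb. With every list limited to its 15122 highest peaks, the median gaps were 123 and 151 kb in the shPU.1 lists, against 193 and 187 kb in the control lists, a difference of -53.2 kb. Members were still those chosen with the full lists, of which the control lists are the longer, and the part of that choice in these gaps was not tested. The share of unbound peaks with a neighbour within 100 kb was then 44.9% and 41.5% in shPU.1, against 36.4% and 37.4% in control lists.

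Peaks within the equal lists were also spaced differently. The median gap from a peak to the nearest other peak of its list was 22.4 and 19.9 kb in the shPU.1 lists. It was 17.0 and 17.3 kb in the control lists. Peaks of the equal lists fell in 2105 and 1948 of the 1 Mb windows in shPU.1, against 1847 and 1890 in control libraries. The lowest score kept at equal length was 50.01 and 86.5 in shPU.1, against 94.1 and 149 in control lists. Scores grow with depth, which is unknown, so these limits are not on one scale between lists. The part of these limits in the difference was not tested.

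In each of the 4 lists unbound peaks had fewer neighbours than shared ones. Within 100 kb of an unbound peak, and outside it, there was a mean of 1.03 and 1.91 peaks of the shPU.1 lists and 1.92 and 2.43 of the control lists. Around a shared peak the means were 2.93 and 4.71 for the shPU.1 lists and 5.98 and 7.13 for the control lists. No peak at all within 100 kb was found for 55.1% and 38.4% of unbound peaks in the shPU.1 lists and for 52.4% and 47.2% in the control lists. For shared peaks these shares were 13.6% and 5.04% in the shPU.1 lists and 7.33% and 4.61% in the control lists. Shared peaks were chosen by the control lists, so their values in those lists and in the shPU.1 lists are not on equal terms.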

How the data were processed

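PU.1 ChIP followed by sequencing gave 5 peak lists: 4 from macrophage libraries, whose names set each ChIP against input, and 1 from the pair of in vitro libraries, IgG-depleted over PU.1-depleted extract. The submitters' processing notes name Bowtie 0.12.7, MACS 1.4 and build mm9, without settings. The authors deposited a peak score per peak, which MACS of this version by convention writes as 10 times the negative log10 of the p-value. The scores are the authors' own, run from 50 upward, grow with depth and served only to rank or filter inside each list. Without reads per peak, depth is unknown.

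Intervals were compared with Python 3.11.15 and pandas 2.3.3, and the code was tested on simulated intervals. Overlap needed 1 bp. Gaps are in bp between peak edges. Shares carry exact 95% intervals (scipy 1.17.1). The share of strong peaks met was compared between libraries by exact permutation, and regions were not treated as replicates. The 9 MNase samples, and sequence and genes of build mm9, were not analysed here, so peaks are named by position. Named unbound peaks are the 10 highest, 5 widest, 5 farthest and 5 nearest. Peaks beside the score minimum, the longest runs and the densest window are also named. Of the 35 shared peaks tied at the top score, the first 5 by chromosome and start are named. Members, lists and tests were chosen with earlier results of these data known. The alternatives were other score minimums, overlap within 1 kb, trimmed peaks, equal list lengths, autosomes only, score bins, each library left out and the replicate number as a block. The comparison of distances to single lists, with its alternatives, was chosen after seeing the data and is given without a test.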

Additional observations from a re-analysis of the deposited data

How the results depend on the processing

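The share of strong in vitro peaks without an in vivo peak (65.8%) was 73.3%, 52.3% and 42.4% at score minimums of 100, 500 and 1000. It was 63.5% with in vivo peaks within 1 kb counted as overlap, 70.4% with peaks trimmed to their central 200 bp, 77.7% with lists of equal length and 66.1% to 73.8% with 1 library left out. Fewer or narrower in vivo peaks leave more peaks unbound by construction. The log2 width ratio was -0.13, -0.072 and -0.074 at the 3 score minimums, -0.051 with trimmed peaks, -0.047 within score bins and -0.096 to -0.085 with 1 library left out. The log2 score ratio was -0.46, -0.14 and -0.15 at these minimums and -0.34 to -0.28 with 1 library left out. The log2 ratio of gaps to in vivo peaks was 3.03 at a minimum of 1000, 3.13 with the 1 kb margin, 2.36 with trimmed peaks and 2.30 to 3.16 with 1 library left out. The 1 kb margin takes every gap below 1 kb out of the unbound class by construction, leaving 8572 peaks. The shared class, then of 2524 peaks, keeps such gaps. The log2 ratio of X to autosome density was 0.079 at a minimum of 500, -0.10 at 1000 and 0.66 to 1.08 with 1 library left out. The log2 ratio of gaps to other in vitro peaks ran from 0.19 to 0.35 over all 12 settings and was 0.22 to 0.27 with 1 library left out. The difference in strong peaks found, shPU.1 minus control, was 0.71 with equal lists and -12.5 to -0.78 with 1 library left out. The difference in median gap of unbound peaks, a description that the choice of members shapes, was -53.2 kb with equal lists and -37.4 to 23.6 kb with 1 library left out (6.85 kb without control replicate 1). With a control library left out, shared peaks were those met by the other control list alone. The shared class then held 4069 peaks without control replicate 1 and 2486 without control replicate 2, against 2320 as reported. The ratios of unbound over shared peaks in these settings thus compare with a changed class. Where no construction is named, the cause was not tested. With the replicate number as a block these 2 differences were again -6.64 (exact sign-flip permutation p of 0.5) and -6.93 kb (no test). With 1 library of each group per block, the mean over blocks equals the difference of group means by construction, so this is no check. The sign-flip p over 2 blocks cannot be below 0.5. The labels do not say what a number marks. Replicate 1 minus replicate 2, scored as presence at the 13507 strong peaks, correlated at 0.154 across shPU.1 and control.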

Other observations

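Strong in vitro peaks met by shPU.1 lists and by no control list were a larger class on chromosome X than on autosomes. They made up 18 of 151 strong in vitro peaks on X (11.9%, exact 95% interval 7.22 to 18.2), against 371 of 13343 on autosomes (2.78%, 2.51 to 3.07). The shPU.1 lists met 15.9% and 23.2% of the strong peaks on X, against 11.3% and 19.2% in the control lists. On autosomes the order was the other way, with 13.2% and 21.9% in the shPU.1 lists, against 18.5% and 30.2% in the control lists. This contrast was noticed after the values were seen and was not tested.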
